A study of Mus musculus with 1012 samples.

Results

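The 10 genes described here encode dual-specificity phosphatases that act on MAP kinases. They were taken by name, as Dusp1, Dusp2, Dusp4, Dusp5, Dusp6, Dusp7, Dusp8, Dusp10, Dusp14 and Dusp16, from the 30452 features of the gene count table, and all 10 passed the filter on low counts in every comparison tested. The mouse study measured RNA in 1012 cells: 296 cytoplasmic biopsies drawn from living cells through a FluidFM microprobe (Live-seq), 554 whole cells lysed after dissociation and sorting (scRNA-seq), and 162 whole cells of a separate experiment on the effect of the biopsy. RAW cells were RAW264.7 macrophage-like cells, IBA cells were an immortalized brown preadipocyte line, and ASPCs were primary adipose stem and progenitor cells from the subcutaneous fat of female C57BL/6J mice. The groups answer how each phosphatase differs between macrophage-like and adipose-lineage cells, how it differs after lipopolysaccharide (LPS) and after adipogenic induction, and how it differs after a biopsy.

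RAW_Mock was labelled as not treated, where the paper names PBS, and RAW_LPS received LPS. The labels give no time of exposure. By the paper, LPS-treated biopsies were taken some hours after LPS was added, so the LPS comparison shows 1 time point and not a course. RAW cells were the RAW-G9 subline, 1 clone of RAW264.7 that carries mCherry under the Tnf promoter and an EGFP-RelA fusion, except for 1 RAW_Mock and 11 RAW_LPS cells of the Live-seq batch labelled 5Reseq, which were wild-type RAW264.7. ASPC_Pre was not induced, and ASPC_Post had received DMIR, a cocktail of dexamethasone, IBMX, insulin and rosiglitazone. By the paper, ASPC_Post was taken some days after induction began, again 1 time point. IBA cells were untreated. Live-seq held 50 RAW_LPS, 44 IBA, 61 ASPC_Pre and 37 ASPC_Post biopsies, and its RAW_Mock biopsies numbered 8, 20, 63, 12 and 1 in batches 6, 7, 8_8, 9_4 and 5Reseq. The whole cells came from batches 8_8, 9_1 and scRNA, which in that order held 16, 46 and 95 RAW_Mock, 15, 46 and 88 RAW_LPS and 15, 45 and 93 IBA cells, beside 60 ASPC_Pre and 35 ASPC_Post cells in all. The biopsy experiment, in batch 8_1, held 70 IBA cells that were not sampled (0 h), 49 taken 1 h after a biopsy and 43 taken 4 h after it.

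MAP kinase phosphatases remove phosphate from both the threonine and the tyrosine of an activated MAP kinase and so switch off ERK, JNK or p38. Several are transcribed in response to the very kinases they inactivate, which makes them negative feedback regulators as well as readouts of the pathway. They differ in the kinases they prefer and in where they sit. Dusp1, Dusp2, Dusp4 and Dusp5 encode inducible nuclear enzymes, of which Dusp5 is selective for ERK. Dusp6 and Dusp7 encode cytoplasmic ERK phosphatases, Dusp8, Dusp10 and Dusp16 encode enzymes that prefer JNK and p38, and Dusp14 encodes a small atypical enzyme without the kinase-binding domain of the others. In macrophages Dusp1 is known as a brake on cytokine output after LPS.

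In the annotation of mm10, the nuclear group lies on 4 chromosomes: Dusp1 (ENSMUSG00000024190) at chr17:26505590-26562128 on the minus strand, Dusp2 (ENSMUSG00000027368) at chr2:127336159-127338376, Dusp4 (ENSMUSG00000031530) at chr8:34807297-34819894 and Dusp5 (ENSMUSG00000034765) at chr19:53529109-53542431, these 3 on the plus strand. Dusp6 (ENSMUSG00000019960) lies at chr10:99263231-99267489 and Dusp7 (ENSMUSG00000053716) at chr9:106368632-106375724, both on the plus strand. Dusp8 (ENSMUSG00000037887) lies at chr7:142079490-142095843 on the minus strand, Dusp10 (ENSMUSG00000039384) at chr1:184013302-184075636 on the plus strand, Dusp16 (ENSMUSG00000030203) at chr6:134715468-134792625 on the minus strand and Dusp14 (ENSMUSG00000018648) at chr11:84048041-84069261 on the minus strand. No member shares a locus with another. Exons of Dusp1 overlap Ergic1, those of Dusp5 overlap AC137853.2 and those of Dusp8 overlap Gm32786, each on the opposite strand, and reads that fell on exons of both genes were not assigned to either by the counting, which ignored strand and used HTSeq's union mode.

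Promoter letters of 9 members were matched in RefSeq (GRCm38.p6). The stretches of 4 are shown because these genes differed between the cell types in scRNA-seq and because motifs of signal-activated factors fell in them. Each covers the 200 bases from 250 to 51 bases before the transcription start, which lie at chr17:26508523-26508722 on the minus strand for Dusp1, chr2:127335909-127336108 on the plus strand for Dusp2, chr19:53528895-53529094 on the plus strand for Dusp5 and chr7:142095335-142095534 on the minus strand for Dusp8. Capitals mark matches, on either strand, to the cAMP response element TGACGTCA, to its shorter core TGACG, to the E box CACGTG or to the CArG box bound by serum response factor.
Dusp1: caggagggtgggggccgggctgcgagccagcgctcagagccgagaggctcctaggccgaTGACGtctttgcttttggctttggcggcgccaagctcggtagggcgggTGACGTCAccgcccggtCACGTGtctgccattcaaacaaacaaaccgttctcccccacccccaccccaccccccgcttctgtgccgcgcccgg
Dusp2: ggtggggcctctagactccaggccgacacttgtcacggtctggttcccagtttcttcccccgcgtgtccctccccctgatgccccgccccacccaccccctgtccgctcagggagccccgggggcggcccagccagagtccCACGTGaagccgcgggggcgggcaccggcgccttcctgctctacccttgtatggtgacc
Dusp5: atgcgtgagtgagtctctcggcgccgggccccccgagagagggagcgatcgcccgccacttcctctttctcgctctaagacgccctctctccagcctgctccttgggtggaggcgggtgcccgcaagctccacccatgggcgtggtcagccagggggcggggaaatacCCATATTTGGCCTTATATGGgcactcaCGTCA
Dusp8: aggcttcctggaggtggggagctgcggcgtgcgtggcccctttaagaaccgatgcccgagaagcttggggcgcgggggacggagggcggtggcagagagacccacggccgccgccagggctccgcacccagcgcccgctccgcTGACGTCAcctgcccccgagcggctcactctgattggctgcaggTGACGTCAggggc
The cAMP response element was present in 2 of the 9 matched promoters, those of Dusp1 and Dusp8, and in 1.55% of 32851 mouse promoters of the same length (250 bases before the start). The shorter core, which overlaps the full element, was present in 4 of 9 (Dusp1, Dusp5, Dusp8 and Dusp16) and in 17.8% of all. The CArG box was found in 1 of 9, as a pair of adjacent boxes before Dusp5, and in 1.47% of all, and the E box in 2 of 9 (Dusp1 and Dusp2) and in 6.02% of all. The AP-1 motif TGANTCA (6.75% of all promoters), the kappaB consensus (7.25%), the palindromic glucocorticoid response element (0.0304%) and TATAAA (12.4%) matched none of the 9 windows. These are matches of letters and not sites of binding.

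Total counts per cell ran from 64547 to 1603790 in Live-seq (median 506778), from 41030 to 2671609 in scRNA-seq (median 467677) and from 38451 to 1077131 in the biopsy experiment. The median number of genes detected was 3939 in Live-seq and 8434 in scRNA-seq. Counts were summed over the cells of each state and labelled batch, and these sums (1410154 to 34323820 counts after removal of ribosomal protein and negative-control genes) were the replicates of every test. Levels are given as CPM, the counts of a gene scaled to the same total in every sum. In bulk sums of this kind, fewer expressing cells and less RNA per cell cannot be told apart, so the share of cells with a count is given beside the level where it matters, also after thinning each cell to 50000 counts. The labels were checked against 10 macrophage and 10 mesenchymal markers. The macrophage list summed to at least 2935 CPM in every RAW sum and the mesenchymal list to at most 5.63 CPM there. The exception was 1 scRNA-seq cell labelled IBA in batch 9_1, with 31782 CPM of macrophage markers and 0 of mesenchymal markers, and member calls in the scRNA-seq tests were the same with and without it. The Live-seq ASPC_Pre sum of batch 8_8 stood apart, with a median of 1636 genes per biopsy and 5348 CPM of 8 immediate early genes against 402 CPM in batch 9_4.

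Untreated macrophage-like and adipose-lineage cells differed in the members they expressed. In scRNA-seq, Dusp2 was higher in RAW_Mock than in IBA and ASPC_Pre cells, and Dusp1, Dusp5, Dusp8, Dusp10 and Dusp14 were lower. Dusp4, Dusp6, Dusp7 and Dusp16 did not pass the test. Called genes had an adjusted p under 0.05 (edgeR quasi-likelihood test over 13562 genes, 3 batches, batch as a block) and a fold change above 2. That made 6 of 10 members called, 1 higher and 5 lower, where 38% of all genes tested were called, 12.9% higher and 25% lower. The median log2 difference was -2.12 over the members and -0.21 over all genes. Dusp2 passed the filter on low counts through RAW cells alone, and Dusp8 and Dusp10 through IBA and ASPC cells alone. Each was called higher in the cells through which it passed, so these calls are not independent of the filter. All genes tested had passed the same filter.

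**Figure D1:**
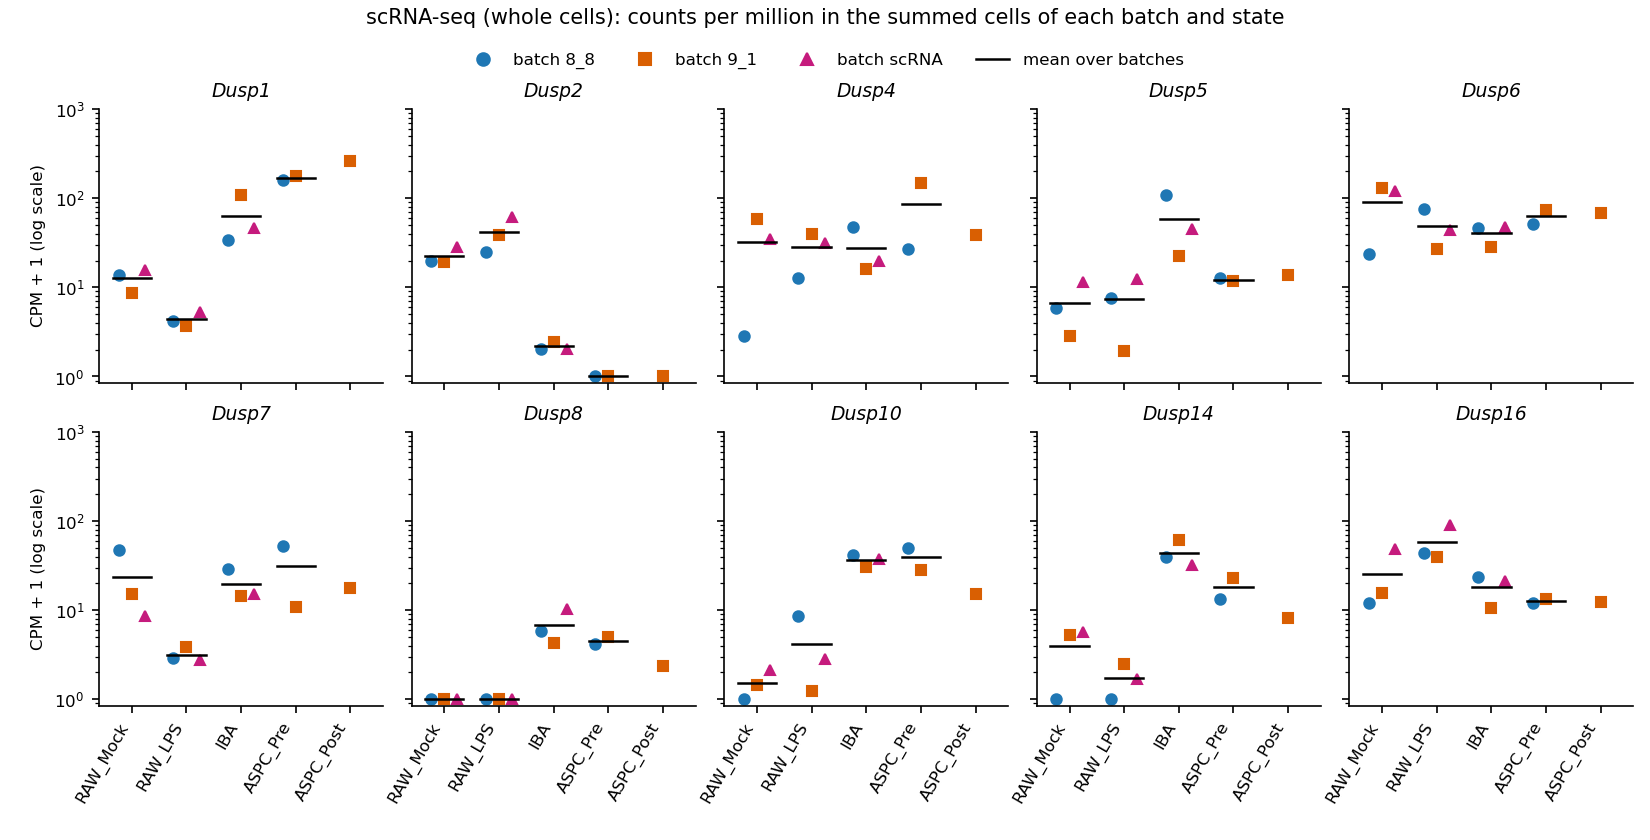
Level of each member in scRNA-seq as CPM + 1 on a log axis, by state; each point is the sum of all cells of 1 batch (marker shape and colour) and the black line is the mean over batches. Dusp2 reached 18.3 to 27.5 CPM in RAW_Mock and 0 in ASPC_Pre, whereas Dusp8 was 0 in all RAW sums and 3.16 to 9.43 CPM in IBA and ASPC_Pre.

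Among the inducible nuclear enzymes, Dusp1 was counted at 12.7, 7.55 and 14.5 CPM in the RAW_Mock sums of batches 8_8, 9_1 and scRNA. IBA cells had 33.1, 108.1 and 45.5 CPM in the same batches, and ASPC_Pre cells had 159.03 and 178 CPM in batches 8_8 and 9_1. No RAW_Mock sum reached the lowest adipose-lineage sum (log2 difference -3.39 ± 0.48 SE, adjusted p = 0.000568). A count of Dusp1 was found in 41.4% of RAW_Mock, 69.9% of IBA and 95% of ASPC_Pre cells, or 28.2%, 56.2% and 93.3% after thinning.

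Dusp2 ran the other way. It was counted at 18.7, 18.3 and 27.5 CPM in RAW_Mock, at 1.04, 1.43 and 1.05 CPM in IBA and at 0 in both ASPC_Pre sums. All RAW_Mock sums lay above all others (log2 difference 7.81 ± 0.64, adjusted p = 5.28e-05), and against ASPC_Pre, where 0 of 60 cells had a count (which, taking 3 cells as the limit for a count of 0, allows up to 5% of cells with a count), pooled RAW_Mock cells were at least 221-fold higher with a floor of 3 counts over the group. The fitted value itself depends on the prior count because ASPC_Pre was at 0.

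Dusp5 was counted at 4.85, 1.88 and 10.4 CPM in RAW_Mock, at 108.2, 21.6 and 44 CPM in IBA and at 11.7 and 10.8 CPM in ASPC_Pre. The highest RAW_Mock sum lay just under the ASPC_Pre sums, so the distance between the lineages (log2 difference -2.96 ± 0.67, adjusted p = 0.00637) came mostly from IBA. Dusp4 spread too widely over batches to be called: 1.85, 57.2 and 33.9 CPM in RAW_Mock, 46.7, 15.03 and 18.7 CPM in IBA and 26.3 and 145.97 CPM in ASPC_Pre (log2 difference -1.27, adjusted p = 0.286).

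The cytoplasmic ERK phosphatases did not separate the lineages. Dusp6 was counted at 22.9, 129.6 and 119.7 CPM in RAW_Mock, at 45.7, 27.5 and 46.4 CPM in IBA and at 50.6 and 72.8 CPM in ASPC_Pre (log2 difference 0.55, adjusted p = 0.463). Batch 8_8 was low for RAW_Mock, and without it the fit gave 1.01 for Dusp6 and 7 called members. Dusp7 ranged from 7.57 to 45.98 CPM in RAW_Mock and from 9.74 to 51.1 CPM in IBA and ASPC_Pre, with the batch 8_8 sum highest in all 3 states.

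Of the JNK and p38 phosphatases, Dusp8 was not found in any RAW_Mock or RAW_LPS cell in scRNA-seq, which by the same limit of 3 cells allows up to 1.91% and 2.01% of cells with a count. That limit is on cells with a count and not on cells that express the gene. It was counted at 4.80, 3.31 and 9.43 CPM in IBA and at 3.16 and 3.95 CPM in ASPC_Pre, in 27.5% and 33.3% of cells. Pooled IBA cells were at least 135-fold and pooled ASPC_Pre cells at least 82.0-fold higher than RAW_Mock with the same floor, and the call held (adjusted p = 0.00367). Dusp10 was counted at 0, 0.431 and 1.14 CPM in RAW_Mock against 40.7, 29.3 and 36.2 CPM in IBA and 49.1 and 27.4 CPM in ASPC_Pre. The ranges were far apart (log2 difference -6.08 ± 1.08, adjusted p = 0.00186), and 4.46% of RAW_Mock cells had any count of it against 75.2% of IBA cells. Dusp16, the member with the longest exons, ranged from 11.1 to 47.5 CPM in RAW_Mock and from 9.54 to 22.5 CPM in IBA and ASPC_Pre.

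Dusp14, the atypical member, was counted at 0, 4.27 and 4.75 CPM in RAW_Mock, at 38.4, 60.01 and 31.2 CPM in IBA and at 12.4 and 22.1 CPM in ASPC_Pre. No RAW_Mock sum overlapped the others (log2 difference -3.75 ± 0.91, adjusted p = 0.00884). Without batch 9_1 the calls of Dusp5 and Dusp14 were lost and 4 members were called. Of the other 13 dual-specificity phosphatases of the table, 11 were tested, 1 was called higher in RAW_Mock (Dusp3, log2 difference 1.44) and 3 lower (Dusp9, Dusp15 and Dusp18). Of 13 ERK feedback inhibitors and targets, 1 was called higher and 8 lower, led by the Sprouty genes Spry1, Spry2 and Spry4, and of 21 MAP kinases and activators 2 were higher and 7 lower, among them Mapk3, which encodes ERK1 (log2 difference -2.30).

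Compared per kilobase of exon, the leading member changed with the cell. In RAW_Mock, Dusp6 had the highest mean (28.96 CPM per kb, range 7.30 to 41.4), followed by Dusp4 (11.3, range 0.675 to 20.9) and Dusp2 (10.7, range 9.14 to 13.7), and these 3 ranges overlapped. In ASPC_Pre, Dusp1 led with 50.9 CPM per kb (48.03 and 53.7), and Dusp4 with 31.4 (9.58 and 53.3) overlapped it. In IBA, Dusp5 (23.4, range 8.75 to 43.8), Dusp14 (22.2, range 16.03 to 30.9) and Dusp1 (18.8, range 10.0 to 32.6) did not differ beyond their spread. Dusp8 in all 3 states, Dusp2 in IBA and ASPC_Pre, Dusp10 in RAW_Mock and Dusp16 in ASPC_Pre were at the bottom. They had at most 1.94 CPM per kb in any sum.

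IBA and ASPC_Pre were then compared with each other. In scRNA-seq, Dusp1 was lower and Dusp2 higher in IBA than in ASPC_Pre (log2 difference -1.83 ± 0.50, adjusted p = 0.0465, and adjusted p = 0.0139), 2 of 10 members where 11.2% of all genes were called, 3.69% higher and 7.47% lower. For Dusp2 this was a difference between 11 IBA cells (7.19%) and 0 of 60 ASPC_Pre cells, at least 11.6-fold with the floor of 3 counts. The IBA cell with macrophage markers held no count of it. Dusp4 (log2 difference -1.28, adjusted p = 0.464) and Dusp5 (1.25, adjusted p = 0.298) were not called. The Dusp1 call was lost without batch 9_1 or batch scRNA, where no member was called, and without batch 8_8, where Dusp2 and Dusp4 were. Without the batch block Dusp2 alone was called.

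Live-seq biopsies held fewer members per cell than whole cells did. After thinning to equal counts, a median of 1 member was counted per RAW_Mock biopsy against 3 per RAW_Mock whole cell, and 3 against 4 for ASPC_Pre. Before thinning the medians were 1 against 4 and 3 against 6. In the same comparison of RAW_Mock with IBA and ASPC_Pre, no member was called in Live-seq by edgeR, where 2.87% of 13462 genes were (1.26% higher, 1.62% lower). At an unadjusted p under 0.05, 3 members passed (Dusp1, Dusp8 and Dusp10). DESeq2, edgeR's newer fit and limma called 2 members each: Dusp1 and Dusp10 in the first pair, Dusp8 and Dusp10 in limma.

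**Figure D2:**
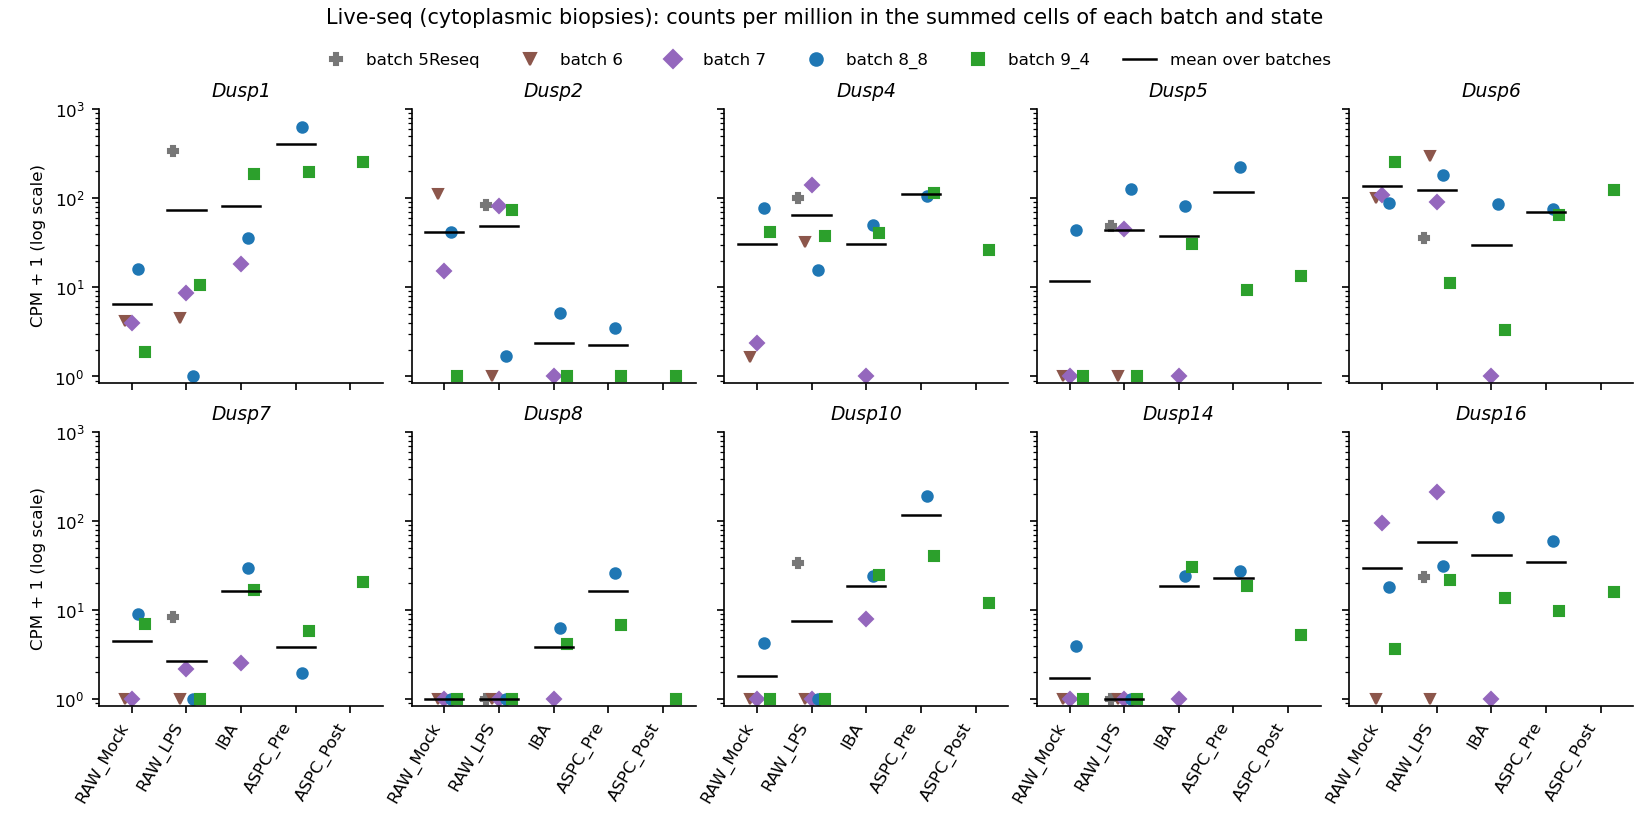
Level of each member in Live-seq as CPM + 1 on a log axis, by state; each point is the sum of at least 3 biopsies of 1 batch and the black line is the mean over batches. Dusp8 was 0 in all RAW sums, and Dusp1 reached 339.5 CPM in the wild-type RAW_LPS sum of batch 5Reseq while the RAW-G9 sums stayed at 0 to 9.73 CPM.

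Dusp1 was counted at 3.20, 2.99, 15.2 and 0.895 CPM in the RAW_Mock biopsies of batches 6, 7, 8_8 and 9_4. IBA biopsies had 17.3, 35.2 and 187 CPM and ASPC_Pre biopsies 625 and 197.5 CPM. No RAW_Mock sum reached the IBA and ASPC_Pre sums (log2 difference -4.87 ± 1.45, adjusted p = 0.112). Dusp10 was counted in 1 RAW_Mock biopsy, at 3.26 CPM in batch 8_8 and at 0 in the other sums, against 7.01 to 191.3 CPM in IBA and ASPC_Pre (log2 difference -6.87 ± 2.25, adjusted p = 0.176). Dusp8 was again at 0 in every RAW biopsy and reached 24.9 CPM in ASPC_Pre of batch 8_8, all of it from 1 biopsy (adjusted p = 0.274). With a floor of 3 counts, pooled ASPC_Pre biopsies were at least 104.9-fold and pooled IBA biopsies at least 23.8-fold higher than RAW_Mock. These bounds are on read counts and rest on few biopsies. Counts came from 6 of 61 ASPC_Pre biopsies (51.8% of them from 1) and from 3 of 44 IBA biopsies (52.1% from 1). By the limit of 3 cells, up to 2.88% of RAW_Mock biopsies could hold a count. Dusp2 was counted at 110, 14.5, 41.05 and 0 CPM in RAW_Mock and at 0 to 4.17 CPM in IBA and ASPC_Pre, where 2 biopsies held a count (log2 difference 5.43 ± 3.01, adjusted p = 0.440). For IBA against ASPC_Pre in Live-seq, 0 members were called by edgeR, DESeq2 or limma and 0 had an unadjusted p under 0.05, where edgeR called 0.0223% of genes, 0.00743% higher and 0.0149% lower.

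With LPS, 4 members kept 1 direction over the scRNA-seq batches, and none passed the adjusted test. Dusp16 and Dusp2 were higher after LPS in 3 of 3 batches, and Dusp1 and Dusp7 were lower in 3 of 3, with no overlap between RAW_Mock and RAW_LPS sums for the latter pair. Of the 10 members, 0 were called by edgeR, where 1.2% of 13562 genes were (0.892% higher, 0.31% lower). Dusp8 had no count in any RAW cell of either technique and passed the filter through IBA and ASPC cells alone. No test of LPS could call it, and it could not enter the counts of directions or of sums without overlap. At an unadjusted p under 0.05, 4 members passed (those just named), as did 14.6% of all genes. DESeq2 called 3 members (Dusp1, Dusp7 and Dusp16), limma 2 (Dusp1 and Dusp7) and edgeR's newer fit 1 (Dusp7). Among all genes, sums did not overlap for 11.5% in the lower direction, where 2 of 10 members lay, and for 6.05% in the higher direction, where 0 did. Of all genes, 14.8% were higher in 3 of 3 batches and 27.5% lower in 3 of 3, with 2 of 10 members in each. Of 4 genes chosen as a check of the treatment, Nfkbia, the NF-kB inhibitor gene, rose (log2 difference 2.23 ± 0.37, adjusted p = 0.0317), and the cytokine genes Tnf, Ccl4 and Il1b differed by 3.39, 3.94 and 5.66 on the log2 scale without passing the adjusted test.

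**Figure D3:**
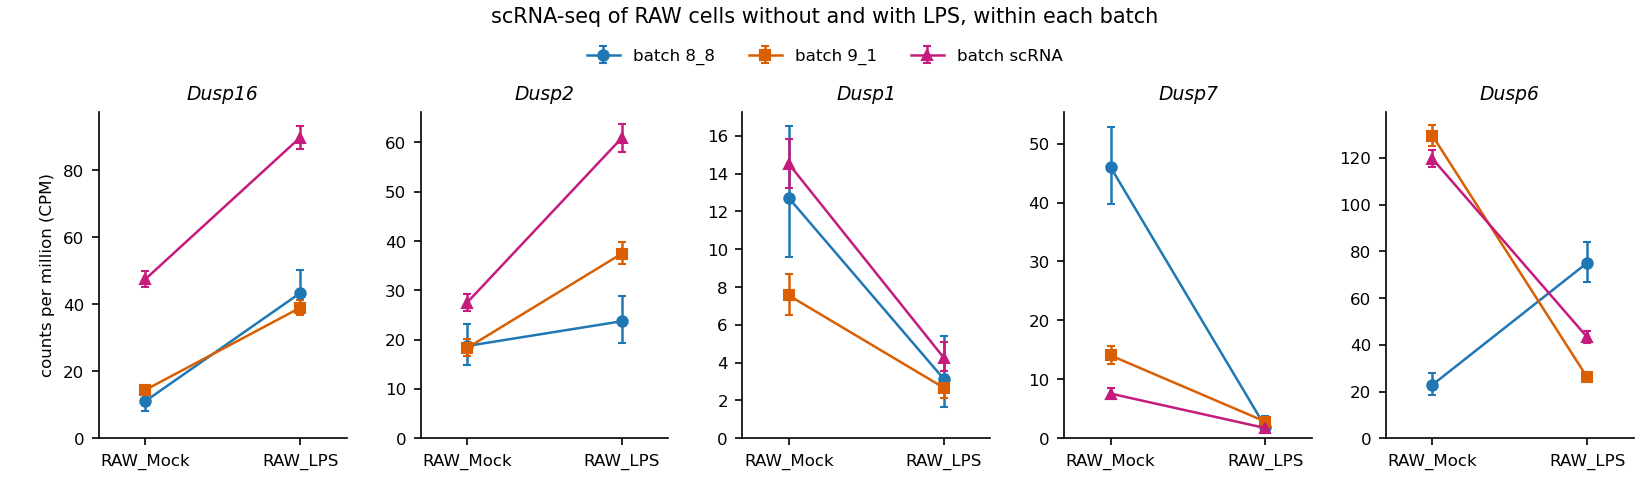
CPM of 5 members in RAW_Mock and RAW_LPS scRNA-seq sums, with lines joining the sums of 1 batch and bars giving exact 95% Poisson intervals of the counts. Lines for Dusp16 and Dusp2 go up and those for Dusp1 and Dusp7 go down in all 3 batches, whereas Dusp6 goes up in batch 8_8 (22.9 to 75.1 CPM) and down in the other batches.

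Dusp1 went from 12.7 to 3.15 CPM in batch 8_8, from 7.55 to 2.68 CPM in batch 9_1 and from 14.5 to 4.27 CPM in batch scRNA. The fitted log2 difference was -1.67 ± 0.49 (p = 0.00728, adjusted p = 0.155). The share of cells with a count was 41.4% in RAW_Mock and 19.5% in RAW_LPS, or 28.2% and 10.1% after thinning. Dusp2, which in scRNA-seq was called higher in RAW cells than in the others, was at 18.7, 18.3 and 27.5 CPM before and 23.7, 37.5 and 60.9 CPM after LPS (log2 difference 1.00 ± 0.43, adjusted p = 0.337). The ranges overlapped, and batch 8_8 moved least. Dusp4 went from 1.85, 57.2 and 33.9 CPM to 11.9, 39.2 and 30.1 CPM, and Dusp5 from 4.85, 1.88 and 10.4 CPM to 6.54, 0.928 and 11.6 CPM. Neither kept a direction over the batches.

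Dusp7 was counted at 45.98, 14.1 and 7.57 CPM in RAW_Mock and at 1.94, 2.82 and 1.73 CPM in RAW_LPS (log2 difference -2.71 ± 0.58, adjusted p = 0.067). The RAW_Mock level varied widely between batches while the RAW_LPS level hardly did, and the share of cells with a count went from 50.96% to 14.8%, or from 27.6% to 4.70% after thinning. Dusp6, the other ERK phosphatase of the cytoplasm, was at 22.9, 129.6 and 119.7 CPM before and 75.1, 26.2 and 43.3 CPM after LPS. Its direction differed between batches (log2 difference -0.71 ± 0.65, adjusted p = 0.705), and without batch 9_1 the fitted value was 0.079.

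Dusp16 was counted at 11.1, 14.4 and 47.5 CPM in RAW_Mock and at 43.4, 38.96 and 89.8 CPM in RAW_LPS. Each batch moved up and the RAW_Mock sum of batch scRNA lay above 2 of the RAW_LPS sums (log2 difference 1.51 ± 0.43, adjusted p = 0.148). A count of Dusp16 was present in 65.0% of RAW_Mock and 84.6% of RAW_LPS cells, or 46.8% and 70.5% after thinning. In a fit of the RAW sums alone Dusp16 was called. Dusp10 rested on few cells: 0, 0.431 and 1.14 CPM before and 7.51, 0.241 and 1.83 CPM after LPS, with all counts of the highest sum from 1 cell (log2 difference 1.84 ± 1.03, adjusted p = 0.476). Dusp14 went from 0, 4.27 and 4.75 CPM to 0, 1.48 and 0.678 CPM (log2 difference -1.82 ± 0.90, adjusted p = 0.411), and Dusp8 stayed at 0. Among the other lists, 1 of 13 ERK feedback genes was called higher (Errfi1, an inhibitor of EGF receptor signalling, log2 difference 2.09, adjusted p = 0.0235), and 0 of 21 MAP kinases and activators and 0 of 7 immediate early genes were called.

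In Live-seq, 0 members and 0 of 13462 genes (0%) were called for LPS by edgeR, where Dusp8, without a count in RAW biopsies, could again not be called. At an unadjusted p under 0.05, 0 members and 539 genes passed, and DESeq2 and limma called 0 members among 641 genes and 1 gene. Dusp16 was at 0, 93.7, 17.4 and 2.69 CPM in RAW_Mock biopsies of batches 6, 7, 8_8 and 9_4, and at 0, 210.8, 30.1 and 20.9 CPM in RAW_LPS biopsies of the same batches. It was higher in the 3 batches where it was counted (log2 difference 1.79 ± 1.94, adjusted p = 1). The RAW_Mock value of batch 7 and the RAW_LPS value of batch 8_8 each came from 1 biopsy, and in batch 8_8 the share of biopsies with a count ran the other way, 20.6% in RAW_Mock and 11.1% in RAW_LPS, or 12.9% and 0% after thinning. Dusp1, which was lower after LPS in 3 of 3 scRNA-seq batches, was higher after it in 3 of 4 Live-seq batches (log2 ratios 0.15, 1.33 and 3.44 in batches 6, 7 and 9_4) and at 0 after LPS in batch 8_8. All its RAW_LPS counts in batches 6, 7 and 9_4 came from 1 biopsy each. Dusp7 was counted in 2 of the RAW_Mock and 1 of the RAW_LPS sums of these 4 batches, at up to 8.08 and 1.21 CPM, and Dusp14 in 1 and 0. Dusp2 was higher after LPS in 2 batches and lower in 2. RAW_Mock and RAW_LPS sums overlapped for all 10 members, for Dusp8 because all were at 0, and did not overlap for 2.07% of genes (0.691% higher, 1.37% lower).

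After LPS, Dusp1 was counted far more in wild-type RAW264.7 than in RAW-G9 biopsies. RAW_LPS biopsies of RAW-G9 had 3.55, 7.55, 0 and 9.73 CPM in batches 6, 7, 8_8 and 9_4, and those of wild-type RAW264.7 in batch 5Reseq had 339.5 CPM. Counts were present in 3 of 39 RAW-G9 biopsies and in 5 of 11 wild-type ones, and 1 wild-type biopsy held 41.6% of the counts of its sum. Dusp4, Dusp5, Dusp6, Dusp7 and Dusp10 were also found in a larger share of wild-type biopsies. The shares were 54.5% against 30.8% for Dusp4, 45.5% against 17.9% for Dusp5 and 36.4% against 15.4% for Dusp6. After thinning they were 36.4% against 21.1%, 36.4% against 13.2% and 36.4% against 15.8%. Dusp2 and Dusp16 differed little (36.4% against 33.3% for both, before thinning). Pooled levels of Dusp6 (35.2 against 91.6 CPM) and Dusp16 were lower in wild-type biopsies. Biopsies of batch 5Reseq also had the highest median number of genes among RAW_LPS batches (4399, against 1855 to 4276.5). Line and batch cannot be told apart, since batch 5Reseq held the wild-type cells, and no test was made of these shares. The difference of the LPS effect between Live-seq and scRNA-seq was not called for any member (0% of genes called, 665 at an unadjusted p under 0.05; DESeq2 396, limma 0): it was 1.93 ± 1.59 for Dusp1 (p = 0.242, adjusted p = 1) and -6.72 ± 3.02 for Dusp10 (p = 0.0447, adjusted p = 0.989).

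After adipogenic induction, Dusp4 and Dusp14 were lower in whole cells and in biopsies. Each technique had 1 batch with both states, so no test across replicates was possible. The intervals given here are exact Poisson intervals that cover the counting of reads only, and not the spread between cells or replicates. In scRNA-seq 2 members (Dusp4 and Dusp14) were past 2-fold, both lower, where 11.2% of genes with at least 10 CPM in either sum were past 2-fold lower and 14% higher. In Live-seq 3 members were past 2-fold lower (Dusp4, Dusp10 and Dusp14; 17.9% of genes) and 1 higher (Dusp7; 13.5%). The adipocyte gene Fabp4, for a fatty acid-binding protein, went from 15.99 to 572 CPM in scRNA-seq and from 17.7 to 319 CPM in Live-seq. Most other adipogenic markers did not follow it. Of 8 listed, 5 had at least 10 CPM in scRNA-seq, with 2 past 2-fold higher (Fabp4 and Cebpa) and 0 lower. In Live-seq 3 had that level, with 1 higher (Fabp4) and 0 lower. The list summed to 482 CPM before and 1024 CPM after in scRNA-seq, and to 514 and 706 CPM in Live-seq. Adipoq had 0 counts in ASPCs of both techniques.

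**Figure D4:**
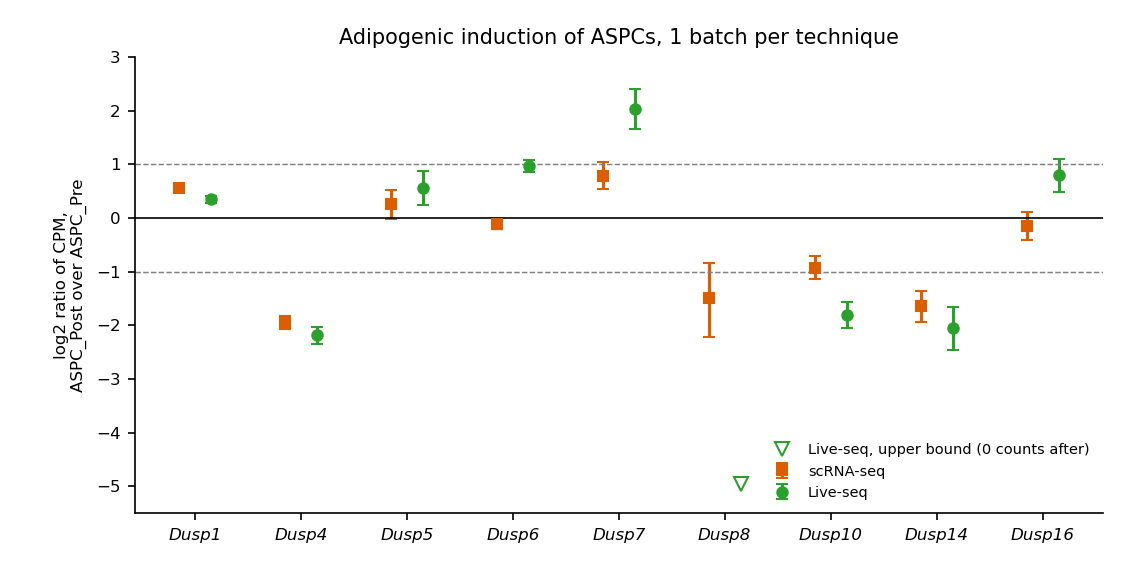
log2 ratio of CPM in ASPC_Post over ASPC_Pre for 9 members in scRNA-seq (squares) and Live-seq (circles), with 95% Poisson intervals of the counts and dashed lines at 2-fold; the open triangle is an upper bound because Live-seq held 0 counts of Dusp8 after induction. Dusp4 (-1.95 and -2.18) and Dusp14 (-1.64 and -2.05) lay below the lower line in both techniques, and Dusp2, at 0 in all 4 sums, is not drawn.

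Among the nuclear enzymes, Dusp4 went from 145.97 to 37.8 CPM in scRNA-seq (log2 ratio -1.95, interval -2.07 to -1.83) and from 115 to 25.2 CPM in Live-seq (-2.18, interval -2.34 to -2.03). Fewer cells held a count of it in Live-seq, 48.6% against 74.4%, or 32.4% against 62.8% after thinning, and in scRNA-seq 82.9% against 88.6%, or 60% against 84.1%. The level before induction was itself unstable over batches, since the ASPC_Pre sum of scRNA-seq batch 8_8 held 26.3 CPM, below the induced cells of batch 9_1. Dusp1 moved little and upwards, from 178 to 261 CPM in scRNA-seq (log2 ratio 0.55) and from 197.5 to 252 CPM in Live-seq (0.35). Dusp5 stayed between 8.42 and 12.8 CPM, and Dusp2 was at 0.

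The ERK phosphatases of the cytoplasm differed between techniques. Dusp6 went from 72.8 to 67.7 CPM in scRNA-seq (log2 ratio -0.11) and from 63.4 to 124 CPM in Live-seq (0.97), where 1 biopsy held 37.7% of the counts after induction; without the highest cell of each group the Live-seq ratio was 0.49. Dusp7 went from 9.74 to 16.8 CPM in scRNA-seq (0.78, interval 0.53 to 1.04) and from 4.78 to 19.5 CPM in Live-seq (2.03, interval 1.66 to 2.41). Within the batch that held both states, each technique placed Dusp7 higher after induction. The ASPC_Pre sum of scRNA-seq batch 8_8, however, held 51.1 CPM, above the induced cells. The shares of biopsies with a count were 20.9% before and 29.7% after, and 1 induced biopsy held 34.6% of the counts.

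Of the JNK and p38 phosphatases, Dusp10 went from 27.4 to 14.4 CPM in scRNA-seq (log2 ratio -0.93, interval -1.14 to -0.71) and from 39.1 to 11.1 CPM in Live-seq (-1.81, interval -2.06 to -1.57), where 1 induced biopsy held 73.6% of the counts. Dusp8 went from 3.95 to 1.39 CPM in scRNA-seq (-1.50) and from 5.85 CPM to no count in 37 biopsies in Live-seq, at least 31.2-fold lower with a floor of 3 counts. The counts before induction came from 5 of 43 biopsies, 67.7% of them from 1, and without the highest biopsy of each group the bound moved from -4.96 to -3.32 on the log2 scale. Dusp16 stayed between 8.68 and 15.01 CPM. The atypical Dusp14 went from 22.1 to 7.09 CPM (-1.64, interval -1.94 to -1.36) and from 17.6 to 4.25 CPM (-2.05, interval -2.45 to -1.66). Its Live-seq counts after induction came from 3 of 37 biopsies, 70.6% of them from 1. Some Live-seq cells had been biopsied before; without the 13 ASPC_Post and 12 ASPC_Pre biopsies with a recorded extraction order, Dusp4 was at -2.57 while Dusp10 and Dusp14 were at -0.67 and -0.52, no longer past 2-fold.

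The labels pair biopsies taken before and after induction for 9 ASPCs, a pairing that was not checked by barcode here. Dusp4 was lower after induction in 8 of the 9, higher in 0, and without a count in 1, with a median of 73.2 CPM before and 0 after. Dusp14 was lower in 4 and higher in 0, Dusp10 lower in 5 and higher in 1, and Dusp1 lower in 4 and higher in 4. A second biopsy follows a first, so induction and earlier sampling cannot be told apart in these cells, which are also part of the Live-seq sums above. In 4 RAW-G9 cells biopsied before and after LPS, Dusp6 was lower after it in 2 and at 0 in both biopsies of the other 2, and Dusp16 had no count in any.

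The other genes of the pathway moved with induction in both directions. Of 12 ERK feedback genes with a level in either sum, 3 were past 2-fold higher in each technique and 1 (scRNA-seq) or 2 (Live-seq) were lower. Errfi1 went from 448 to 1175 CPM in scRNA-seq and from 468 to 1564 CPM in Live-seq. Spry1 went from 17.3 to 3.37 CPM in scRNA-seq. Among MAP kinases, Mapk13 (p38 delta) went from 41.7 to 3.48 CPM and Mapk14 (p38 alpha) from 21.5 to 53.3 CPM in scRNA-seq, with the same directions in Live-seq. Among the other dual-specificity phosphatases Dusp3 was past 2-fold lower in both techniques (145.2 to 70.2 CPM and 153.5 to 41.7 CPM).

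Against the cells of the same batch that were not sampled, biopsied IBA cells held less Dusp5 and Dusp6 at 4 h. At 1 h they held more Dusp1 and less Dusp7, both short of 2-fold (log2 ratios 0.93 and -0.90). At 1 h, 0 members were past 2-fold, where 6.63% of genes were (2.29% higher, 4.34% lower), and at 4 h 2 members were, both lower (Dusp5 and Dusp6), where 8.36% of genes were past 2-fold, 2.63% higher and 5.73% lower. All 3 time points were 1 batch with 1 sum each, both comparisons share the cells not sampled, and no test across replicates was possible. The IBA sums of the main scRNA-seq batches, from cells not biopsied, ranged from 33.1 to 108.1 CPM for Dusp1, 21.6 to 108.2 for Dusp5 and 27.5 to 46.4 for Dusp6. The 1 h level of Dusp1 lay under that range, the 4 h level of Dusp5 within it and the 4 h level of Dusp6 under it. The cells not sampled (0 h) lay outside the range for all 3 genes. They were under it for Dusp1 (17.2 CPM) and above it for Dusp5 (134 CPM) and Dusp6 (60.6 CPM). The lower levels of Dusp5 and Dusp6 at 4 h are thus set against a high control.

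**Figure D5:**
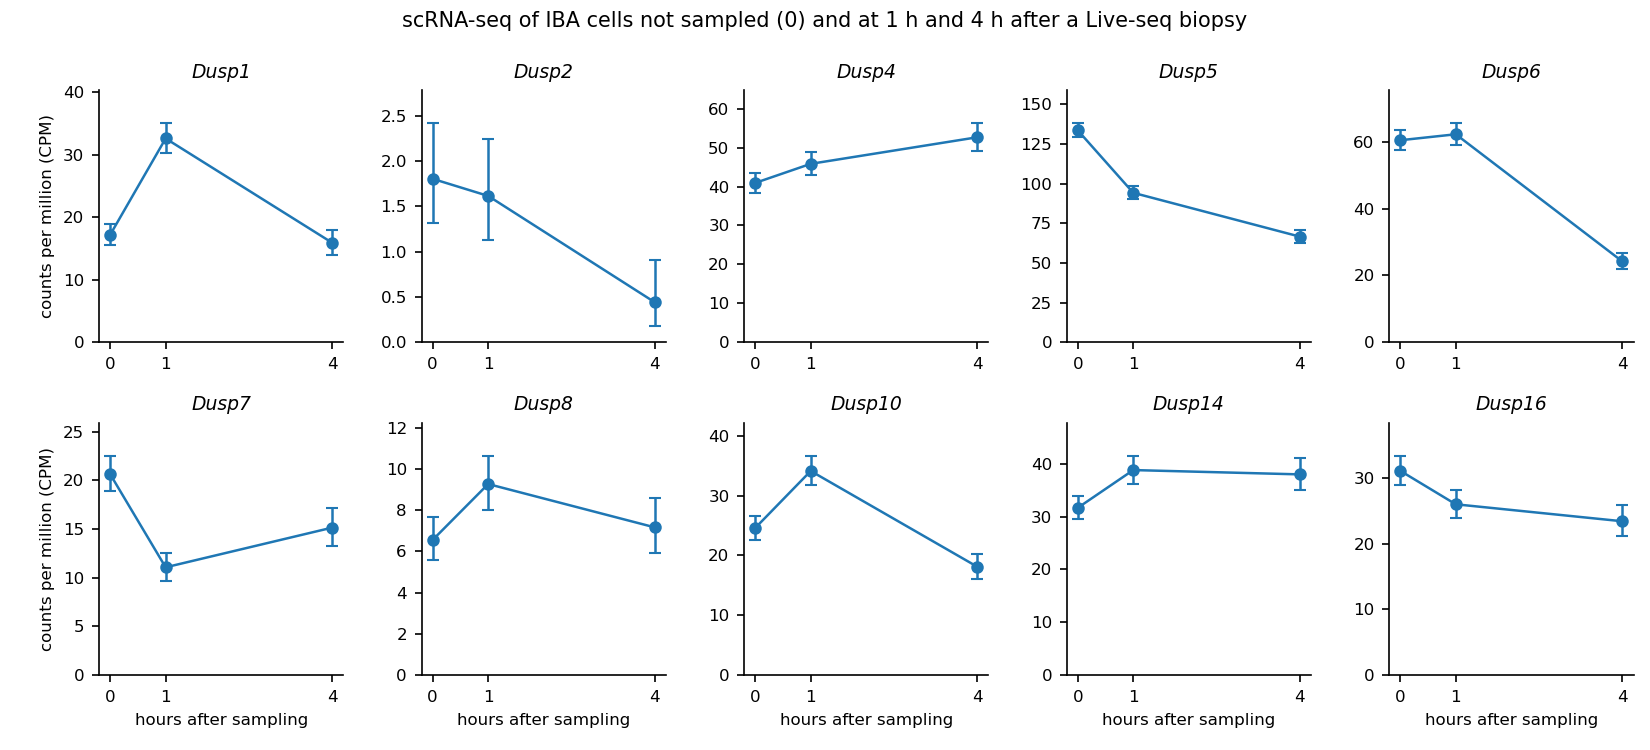
CPM of each member in IBA cells not sampled (0 h) and 1 h and 4 h after a Live-seq biopsy, with exact 95% Poisson intervals; each panel has its own axis from 0. Dusp1 was highest at 1 h (32.6 CPM), and Dusp5 and Dusp6 were lowest at 4 h (66.6 and 24.2 CPM).

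Dusp1 was at 17.2, 32.6 and 15.9 CPM at 0, 1 and 4 h, a log2 ratio of 0.93 at 1 h (interval 0.75 to 1.10) and -0.11 at 4 h. The share of cells with a count was 40.0%, 67.3% and 46.5%, or 27.9%, 44.9% and 23.3% after thinning, so more cells held it at 1 h. Dusp5 was at 134, 94.3 and 66.6 CPM (log2 ratio -1.01 at 4 h, interval -1.11 to -0.91), in 90%, 89.8% and 81.4% of cells. Dusp4 changed by at most 0.36 on the log2 scale, and Dusp2 stayed under 2 CPM.

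Dusp6 was at 60.6, 62.4 and 24.2 CPM (log2 ratio -1.32 at 4 h, interval -1.49 to -1.16), in 65.7%, 77.6% and 53.5% of cells, or 48.5%, 59.2% and 27.9% after thinning. The read-count intervals of 0 h and 1 h overlapped, and the 4 h level was below both. Dusp7 was lowest at 1 h, with 20.7, 11.1 and 15.2 CPM. Dusp10 was at 24.6, 34.1 and 18.1 CPM at the 3 times, Dusp8 at 6.56, 9.27 and 7.17 CPM and Dusp14 at 31.6, 38.8 and 37.98 CPM, each highest at 1 h. Dusp16 was highest at 0 h (31.1, 25.97 and 23.4 CPM), and these 4 members differed from 0 h by at most 0.50 on the log2 scale. Of 8 immediate early genes, 3 were past 2-fold higher at 1 h, of which Atf3 went from 4.02 to 33.7 CPM and Fos from 12.8 to 51.9 CPM, and at 4 h 1 was higher and 3 lower. Of 11 ERK feedback genes, 0 were past 2-fold at 1 h and 5 were lower at 4 h, among them Egr1 (153.1 to 58.1 CPM) and Myc (193 to 74.8 CPM); their median log2 ratio was -0.53 against -0.05 over all genes.

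Patterns across the 12 scRNA-seq sums set members apart as well (Pearson r of log2(CPM + 1), points that share batches and that fall into lineages, given as a description). Dusp1 and Dusp2 ran opposite to each other (r = -0.94), and Dusp8 ran with Dusp10 (r = 0.90). The genes with the pattern most like Dusp1 were Wipi1, Snx33 and Cast (r = 0.97 for all 3), those most like Dusp2 were H2-Q6, Rbpj-ps3 and H2-Q5 (0.99), and those most like Dusp8 were Pcdh18, Pkia and Dnm1 (0.99). H2-Q genes are near-identical copies, and reads that aligned to more than 1 place were not kept, so their levels rest on the reads that could be told apart. The closest to Dusp16 were Hdc, which encodes histidine decarboxylase, and the cytokine genes Ccl22 and Il1a (0.94, 0.93 and 0.93). Dusp4 and Dusp6 had no close companion, with a highest r of 0.84 and 0.87.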

How the data were processed

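RNA was measured by Live-seq (biopsies amplified with an enhanced Smart-seq2 protocol) and by Smart-seq2 of whole cells. There were no molecular identifiers, so the Poisson intervals cover the counting of amplified reads only. They do not cover the sampling of RNA molecules or the spread between cells or replicates, and are too narrow for these. The deposited values are raw counts per gene, with no normalization, in which each GEO sample is 1 cell. The authors demultiplexed with bcl2fastq 2.19.1, aligned reads to mm10 (STAR 2.6.1c), kept unique alignments and counted them over Ensembl genes, ignoring strand (HTSeq), and they kept cells by number of genes, mitochondrial share and mapping rate. 2 cells in the table had under 1000 genes.

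The members and gene lists were chosen with earlier results of these data known. Counts were summed per technique, state and labelled batch (sums of at least 3 cells), after leaving out 92 ribosomal protein genes and 20 genes that the study found in its negative controls, and CPM refers to what was kept. A gene was tested if some scRNA-seq state had 2 counts of it in 15% of its cells or more and if edgeR's filterByExpr kept it, at a count minimum of 2 and a proportion minimum of 0.05. Tests used edgeR 4.0.16 (TMM, quasi-likelihood, state plus batch, Benjamini-Hochberg over all genes tested), with calls at an adjusted p under 0.05 and an absolute log2 fold change above 1. DESeq2 1.42.0 and limma 3.58.1 were alternatives. The fit was tested on simulated data. Nothing in the labels says that the cells of different batches came from separate animals or cultures, so p-values measure the spread between these sums. Deviations of RAW_Mock and RAW_LPS sums from their means correlated within batches, with r from 0.257 to 0.453 in scRNA-seq and from 0.0146 to 0.183 in Live-seq, and the batch labels give the pairing, so batch was a block in the model. Comparisons with 1 batch had no test. There, CPM carry exact Poisson intervals of 95% and shares exact binomial ones, and past 2-fold also needed 10 CPM in either sum. The genes named from other lists are up to 4 per list with the largest differences among those called or past 2-fold, and the genes named as most like a member are the 3 with the highest Pearson r over the 12 scRNA-seq sums. A gene with 0 counts was given a floor of 3 counts. Promoter letters are RefSeq's, and that of Dusp4 was not used here.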

Additional observations from a re-analysis of the deposited data

Results flagged for a closer look

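Of 17 groups of 4 or 5 Live-seq sums in which 1 sum could be compared with the rest of its group, 9 held a sum far from the others by Dixon's test, which chance does in about 1 of 20 groups of normally distributed values. That rate does not hold for sparse counts: for Dusp10 in RAW_LPS and for Dusp5, Dusp10 and Dusp14 in RAW_Mock all other sums were 0, so that a single sum above 0 always stands apart. In RAW_LPS, the wild-type sum of batch 5Reseq was far above the RAW-G9 sums for Dusp1 (339.5 CPM), Dusp7 (7.32 CPM) and Dusp10 (33.3 CPM, of which 99.4% came from 1 biopsy). The sum of batch 7 was high for Dusp16 (210.8 CPM, spread over 8 of 16 biopsies). In RAW_Mock, batch 8_8, which with 63 biopsies was the largest group, was high for Dusp1 (15.2 CPM), Dusp5 (42.8 CPM), Dusp10 (3.26 CPM, from 1 biopsy) and Dusp14 (2.93 CPM), where the other RAW_Mock sums of at least 3 biopsies held at most 3.20 CPM. Batch 9_4 was high for Dusp6 (251.3 CPM, in 8 of 12 biopsies). Line, batch and number of biopsies move with these values, and their part was not tested.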

How the results depend on the processing

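The scRNA-seq comparison of RAW_Mock with IBA and ASPC_Pre called 6 members under every tool, normalization and filter tried and with no replicate block, and 4 to 7 when a batch was left out. With LPS in scRNA-seq, where no member was called, DESeq2 called 3 members, limma 2, edgeR's newer fit 1, the fit without a filter on low counts 1 and the fit of RAW sums alone 1. With no replicate block, 0 members were called for LPS and 35 genes in all, against 121 higher and 42 lower with it; leaving out a batch gave 0 to 18 genes and no member. For Dusp6, leaving out a batch gave values from -1.74 to 0.079 on the log2 scale, the last without batch 9_1 and of the opposite sign. In Live-seq, the comparison of RAW_Mock with IBA and ASPC_Pre called 2 members with DESeq2, 2 with edgeR's newer fit and 2 with limma. For IBA against ASPC_Pre in scRNA-seq, 1 member was called with no replicate block, and 0 to 2 when a batch was left out. Without the block the difference of LPS effects for Dusp10 turned to 0.84. The block changed no other count of members. After a biopsy, leaving out the highest cell of each group put 1 member (Dusp1) past 2-fold at 1 h, and the mean CPM of cells, in place of the sum, put 5 past it at 4 h. The cause of these changes was not tested. Of the alternative counts of members computed, 8 were above the reported one with a test, 3 below it and 2 moved without a test, and the others stayed within 1.5 times of it. Leaving out the IBA cell with macrophage markers was an alternative chosen after seeing the data and changed no member call.

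Counts over all genes also moved. For LPS in scRNA-seq, DESeq2 called 712 genes, limma 457, edgeR's newer fit 411, the fit without a filter 276 and RAW sums alone 510, and for LPS in Live-seq DESeq2 called 641, limma 1 and the fit without a filter 1 against 0. DESeq2 called 396 genes for the difference of LPS effects, and leaving out a batch gave 0 to 30, against 0. For RAW_Mock against IBA and ASPC_Pre in Live-seq, 387 genes became 1810 (DESeq2), 1625 (limma), 1036 (edgeR's newer fit), 845 (no replicate block) and 24 to 506 (a batch left out). For IBA against ASPC_Pre, 1514 genes in scRNA-seq became 2879 (limma), 2629 (edgeR's newer fit), 950 (no replicate block) and 43 to 1537 (a batch left out), and 3 genes in Live-seq became 276 (DESeq2), 241 (limma), 13 (no filter), 11 (no replicate block), 8 (edgeR's newer fit), 2 (ribosomal and negative-control genes kept), 0 (sums of 1 or more cells) and 0 to 3 (a batch left out). Keeping the ribosomal and negative-control genes moved the median log2 difference of all genes between RAW_Mock and the others in Live-seq from -0.13 to 0.02, and RLE scaling moved that of the difference of LPS effects from -0.46 to -0.35.

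Depth limits what these sums can show. Live-seq sums of RAW cells in batches 6 and 8_8 after LPS held 1410154 and 1430489 counts, so 3 counts there are worth 2.13 and 2.10 CPM. A member at 0 in them is bounded by depth to about that level and no lower. These sums held 4 and 9 biopsies, so a 0 there also rests on few cells.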

Other observations

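The single wild-type RAW_Mock biopsy of batch 5Reseq, which was too few cells for a sum, held 0 counts of all 10 members.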
